A study of Mus musculus with 6 samples.

Results

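The genes described here handle vitamin A in the liver: 9 of the 17975 genes of the deposited table, chosen by symbol as genes of the pathway. They are Rbp4 and Ttr (plasma transport), Lrat and Retsat (retinol esterification and saturation), Bco1 (cleavage of beta-carotene), Rdh16 (a retinol dehydrogenase), Aldh1a1 and Aldh1a2 (retinoic acid synthesis) and Cyp26a1 (retinoic acid breakdown). All 9 passed the filter on low counts, Aldh1a2 only through its counts in Hom livers. The RNA came from livers of 3 Hom and 3 WT mice on a C57BL/6 background, 1 liver per mouse. Hom mice carried NEK7 fl/fl and Alb-Cre, in which the albumin promoter drives Cre in hepatocytes, a design that leaves Nek7 intact in the other liver cells. The sample titles give the controls only as Ctrl, and the paper calls them wild-type (WT here). Whether each carried a floxed allele or Alb-Cre alone is not given in the sources used here, nor are the age and sex of each mouse sequenced. The study's general statement on its knockout mice is that animals of both sexes were used. It also states in general that the groups of mice were matched for sex and age. The libraries were made from whole liver tissue, and fewer cells of a type and less RNA per cell cannot be told apart in them.

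In the liver, retinol taken up by hepatocytes leaves for the blood bound to retinol-binding protein, the product of Rbp4, which travels in a complex with transthyretin, the product of Ttr. Retinol that is kept is passed to hepatic stellate cells, where the enzyme made by Lrat joins it to a fatty acid and the ester is held in lipid droplets. Stellate cells that become activated in fibrosis are known to lose these droplets. Retinol is oxidised reversibly to retinaldehyde and then irreversibly to retinoic acid, which acts through nuclear receptors (RAR and RXR) and induces its own breakdown enzyme, Cyp26a1.

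The libraries held 19349418 to 19476955 estimated counts per WT liver and 19392568 to 19730236 per Hom liver. Values below are CPM, the rounded counts set on a common scale of library size times TMM factor (0.806 to 0.924 in WT, 1.09 to 1.23 in Hom). Nek7 had 1036 to 1127 counts in WT and 310 to 439 in Hom livers. The Y-linked gene Eif2s3y had 4 counts in Hom replicate 1 and 582 to 1017 in the other 5 livers. Ddx3y and Kdm5d, also Y-linked, had 0 counts in that liver and 243 to 1125 in the others. Y-linked Uty had 149 counts against 464 to 725. This is the pattern of a female among males, but the labels give no sex. The share of a sex difference in the values below was not tested. Hom replicate 1 was also the highest or the lowest Hom liver for all 9 retinoid genes, against 78.3% of all tested genes, and results that rest on it are given with and without it.

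A gene controlled by retinoic acid is often recognised by a pair of receptor hexamers in its promoter, and the promoter of Cyp26a1 is a textbook case. The stretch before each annotated start was searched on both strands for the hexamer AGGTCA, its variant AGTTCA, its variant GGGTCA and its variant GGTTCA, and for direct repeats of any of them (each repeat therefore also counts as holding a hexamer). RefSeq (GRCm38.p6) gave an entry for 8 of the 9 genes, 10 entries in all, and none for Ttr. Of 32851 promoters searched over the 250 bases before the start, 38.6% held at least 1 hexamer, and so did 6 of the 10 entries. The promoters of retinoid genes printed here stop before the first annotated exon and can therefore be shorter than the stretch searched. For Rarb no base was left under that rule, so its element below is taken from the full stretch searched. A direct repeat with a spacer of 5 bases was in 29 promoters, or 0.0883%, and Cyp26a1 was the only retinoid gene of the 9 with it. The Cyp26a1 promoter, chr19:37697558-37697797 on the plus strand, is shown because the gene is the retinoic acid-induced member, with the hexamers in capitals as they read on the gene's strand.
Cyp26a1: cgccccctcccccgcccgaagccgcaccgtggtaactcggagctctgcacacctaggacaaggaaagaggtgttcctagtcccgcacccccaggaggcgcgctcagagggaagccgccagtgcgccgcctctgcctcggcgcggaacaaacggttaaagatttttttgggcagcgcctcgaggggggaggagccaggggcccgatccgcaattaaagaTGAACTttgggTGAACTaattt
The repeat read on its own strand lies 32 to 16 bases before the start of Cyp26a1. A repeat of the same kind lies 53 to 37 bases before the start of Rarb, the retinoid receptor gene described below. The 2 elements are set side by side here, each read along the strand of the motif, with hexamers in capitals.
Cyp26a1, chr19:37697776-37697792: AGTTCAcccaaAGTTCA
Rarb, chr14:16575513-16575529: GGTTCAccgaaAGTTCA
Bco1 held a direct repeat with a spacer of 1 base, which 54 promoters, or 0.164%, also held. It is shown from chr8:117095615-117095853, plus strand, beside the Aldh1a2 promoter, chr9:71215539-71215788, plus strand, because Aldh1a2 rose furthest of the 9 genes and held no hexamer.
Bco1: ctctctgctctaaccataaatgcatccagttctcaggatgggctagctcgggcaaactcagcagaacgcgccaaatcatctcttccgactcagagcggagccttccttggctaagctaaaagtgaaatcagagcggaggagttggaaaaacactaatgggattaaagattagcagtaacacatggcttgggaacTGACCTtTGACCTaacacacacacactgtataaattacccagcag
Aldh1a2: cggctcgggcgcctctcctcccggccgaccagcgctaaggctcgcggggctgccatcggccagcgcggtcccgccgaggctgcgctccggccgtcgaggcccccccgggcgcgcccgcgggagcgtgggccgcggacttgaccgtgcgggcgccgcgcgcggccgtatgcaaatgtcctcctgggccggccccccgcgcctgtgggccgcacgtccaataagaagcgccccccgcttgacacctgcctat
These matches describe the letters of the reference and not the binding of a receptor in these livers.

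Of the 9 retinoid genes, 4 were lower in Hom livers (Rbp4, Ttr, Retsat and Aldh1a1) and 1 was higher (Aldh1a2, through few WT counts) when the edgeR quasi-likelihood p, adjusted over 13805 genes, had to be under 0.05. Lrat, Rdh16, Bco1 and Cyp26a1 did not pass. Of all tested genes 41.7% passed, 20.1% lower and 21.5% higher. The groups of livers did not overlap for the same 5 genes, against 55.6% of all genes, 27% with Hom lower and 28.7% with Hom higher. The exact two-sided permutation test gave p = 0.1 for each of the 5, the smallest value that 3 mice against 3 allow, and p = 0.2 for Rdh16 and Cyp26a1, 0.5 for Lrat and 1 for Bco1.

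**Figure D1:**
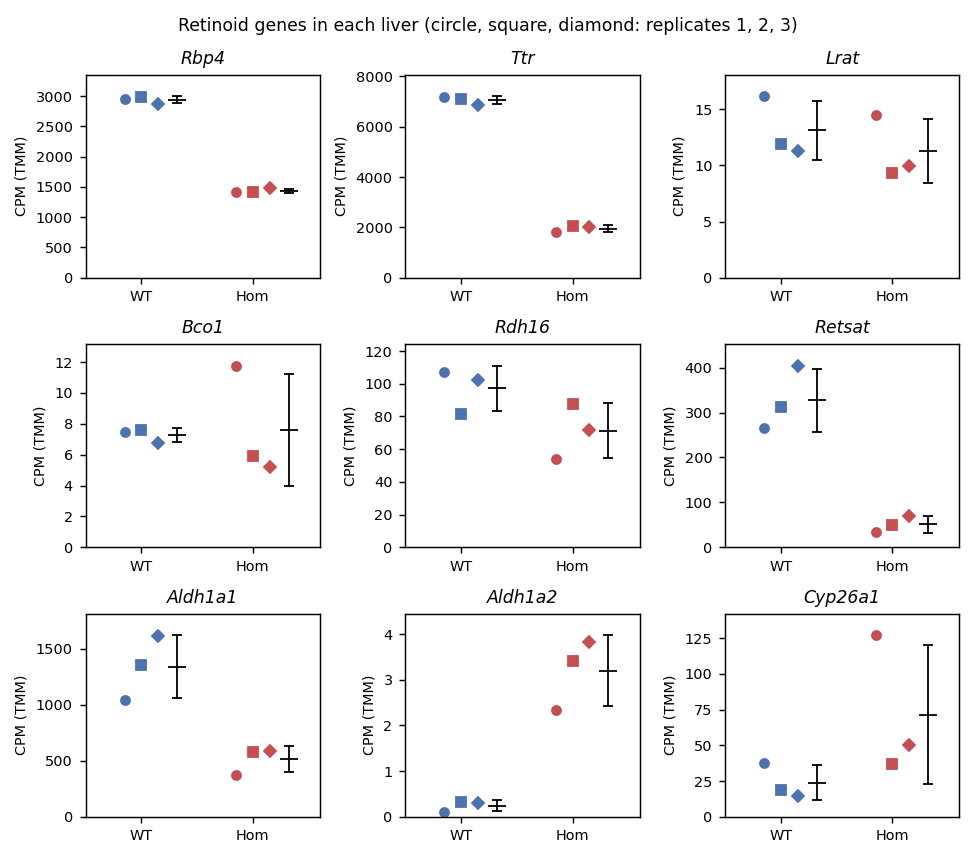
CPM (linear axes from 0) of the 9 retinoid genes in each of 3 WT and 3 Hom livers, 1 point per liver, with the mean ± SD drawn beside the points. The WT and Hom points are apart for Rbp4, Ttr, Retsat, Aldh1a1 and Aldh1a2 and overlap for Lrat, Bco1, Rdh16 and Cyp26a1.

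The transcripts of both plasma carriers were lower in Hom livers. Ttr stood at 7176, 7106 and 6867 CPM in WT replicates 1, 2 and 3 and at 1805, 2039 and 2006 CPM in the Hom livers. Every Hom liver lay under every WT liver, and the livers of each group were close together. The means were 7050 ± 162 (SD, n = 3) and 1950 ± 127 (SD, n = 3), a log2 fold change of -1.85 (SE 0.16, edgeR adjusted p = 0.000487). Only 229 of the 13805 tested genes had a lower log2 fold change than Ttr.

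Rbp4 stood at 2955, 2987 and 2872 CPM in WT livers and at 1409, 1415 and 1476 CPM in Hom livers. The groups were again far apart relative to their spread. The mean fell to 48.8% of that in WT, a log2 fold change of -1.04 (SE 0.13, edgeR adjusted p = 0.00164). The fall of the 2 carriers was unequal. The Ttr to Rbp4 ratio, taken from the authors' TPM so that gene length is allowed for, was 2.80, 2.74 and 2.75 in WT and 1.46, 1.65 and 1.55 in Hom livers (means 2.76 ± 0.03 and 1.55 ± 0.09, SD, n = 3; exact two-sided permutation p = 0.1, the smallest possible). This ratio does not depend on how libraries are scaled.

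Retsat encodes retinol saturase, an enzyme of the endoplasmic reticulum that converts retinol to dihydroretinol, and it fell further than any other of the 9 genes. Its CPM was 266.4, 312.1 and 404 in WT and 33.4, 49.5 and 70.1 in Hom livers. The highest Hom liver lay well below the lowest WT liver, though the spread within each group was wider than for the carriers. Mean CPM in Hom livers was 15.6% of that in WT, a log2 fold change of -2.68 (SE 0.29, edgeR adjusted p = 0.000995). A lower log2 fold change was found for 95 tested genes, or 0.688%.

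Lrat, the esterifying enzyme that marks retinoid-storing stellate cells, did not pass the test. Its CPM was 16.1, 11.9 and 11.2 in WT and 14.5, 9.36 and 9.96 in Hom livers. The groups overlapped, with replicate 1 the highest liver in each. The log2 fold change was -0.22 (SE 0.22, edgeR adjusted p = 0.447). Scaled by library size alone it was 0.21, so no direction can be given for Lrat.

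Bco1, which cleaves beta-carotene into retinaldehyde, was at 7.48, 7.57 and 6.76 CPM in WT and 11.8, 5.90 and 5.17 CPM in Hom livers. Hom replicate 1 lay above all WT livers and the other 2 Hom livers lay below them. The log2 fold change was 0.06 (SE 0.31, edgeR adjusted p = 0.885), and it was -0.39 without Hom replicate 1.

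Rdh16, a short-chain dehydrogenase that oxidises retinol, was at 107.4, 81.5 and 102.5 CPM in WT and 54, 87.8 and 71.9 CPM in Hom livers. Hom replicate 2 lay above WT replicate 2. The difference of -0.45 on the log2 scale (SE 0.19, edgeR adjusted p = 0.0969) did not pass. None of its 6 estimated counts was whole, as happens where the counting divided reads between genes. The paralogs Rdh16f2 (-0.76 on the log2 scale, adjusted p = 0.0574), Rdh1 (-0.50, adjusted p = 0.0707) and Rdh9 (0.61, adjusted p = 0.0266, edgeR) are near-identical candidates for such sharing, and Rdh19 had too few counts to be tested. The call of Rdh9 was lost when any liver other than WT replicate 1 was left out (adjusted p = 0.0569 to 0.0945). Summed CPM over Rdh16 and these 4 paralogs was 360, 256 and 249.6 in WT and 252.7, 242.2 and 243 in Hom livers, so that the groups overlapped in the sum too, if only between Hom replicate 1 and WT replicate 3. Rdh16 made up 29.8 to 41.1% of the sum in WT and 21.4 to 36.2% in Hom livers. How many of its reads belong to a paralog was not tested. Bco1 above, and Rdh7, Ces1d, Lpl and Aox3 below, also had no whole count in any of the 6 livers. Rdh7 is not part of this sum, although in every liver it was above the sum itself. It stood at 949.5 to 1096 CPM in WT and 425.8 to 468.5 CPM in Hom livers. The overlap therefore holds only for the sum without Rdh7.

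The 2 retinaldehyde dehydrogenases moved in opposite directions. Aldh1a1, the main form in liver, was at 1047, 1359 and 1611 CPM in WT and 377.4, 577.6 and 590.2 CPM in Hom livers. No Hom liver reached the lowest WT liver. The means were 1339 ± 282 and 515.1 ± 119 (SD, n = 3), a log2 fold change of -1.38 (SE 0.24, edgeR adjusted p = 0.00481). Its 6 estimated counts were not whole either, and Aldh1a7 is a close paralog. Aldh1a7 had a log2 fold change of 0.05 (edgeR adjusted p = 0.759), and the Aldh1a1 to Aldh1a7 ratio in TPM was 5.43 ± 0.98 in WT and 2 ± 0.26 in Hom livers (SD, n = 3).

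Aldh1a2, which makes retinoic acid in mesenchymal cells of the embryo and adult, was nearly silent in WT livers. It had 2, 5 and 5 counts there and 50, 83 and 89 counts in Hom livers, or 0.112, 0.321 and 0.307 CPM against 2.33, 3.42 and 3.84 CPM. Every Hom liver lay far above every WT liver. The fitted log2 fold change was 3.68 (SE 0.42, edgeR adjusted p = 0.00116), a 12.9-fold rise that rests on the few WT counts. Since the gene passed the filter on low counts only through the group in which it is high, it could pass only in that direction, and with a floor of 10 counts per liver it was not tested. A higher log2 fold change was found for 150 tested genes. The TPM ratio of Aldh1a1 to Aldh1a2 was 7080 ± 3160 in WT and 178 ± 8.3 in Hom livers (SD, n = 3), so Aldh1a1 remained far the more abundant transcript.

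Cyp26a1, the enzyme that clears retinoic acid, was at 37.8, 19 and 14.5 CPM in WT and 126.9, 36.9 and 50.1 CPM in Hom livers. Hom replicate 1 was far above all other livers, and Hom replicate 2 lay just under WT replicate 1. The log2 fold change of 1.58 (SE 0.54, edgeR adjusted p = 0.0517) did not pass. Without Hom replicate 1 it was 0.87 (adjusted p = 0.129), and without WT replicate 1 or Hom replicate 2 it passed (2.08, adjusted p = 0.0321, and 1.89, adjusted p = 0.0406). With the replicate number as a block it was 1.5 (adjusted p = 0.00666). Under DESeq2 it was 1.58 (adjusted p = 0.0478), so the call for Cyp26a1 turned on the settings.

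**Figure D2:**
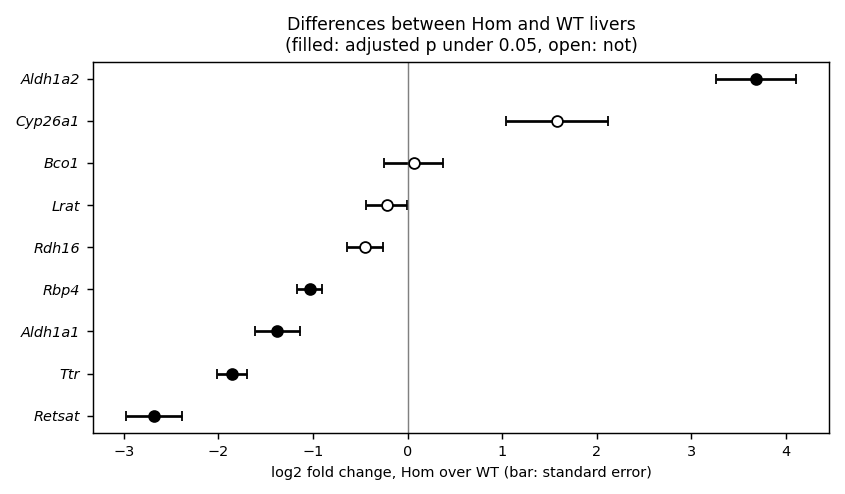
log2 fold change (Hom over WT) of the 9 retinoid genes from edgeR, with bars of 1 SE on either side, ordered by value. Retsat is lowest at -2.68 and Aldh1a2 highest at 3.68, and filled points mark an adjusted p under 0.05.

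The calls for Rbp4, Ttr, Retsat, Aldh1a1 and Aldh1a2 were kept without Hom replicate 1 and without each other liver in turn, with adjusted p-values of at most 0.0124, 0.00510, 0.00706, 0.0200 and 0.00801. They were also kept when libraries were scaled by size alone, which moved the all-gene median by 0.45 on the log2 scale. The values then were -0.58 for Rbp4, -1.40 for Ttr, -2.20 for Retsat, -0.90 for Aldh1a1 and 4.16 for Aldh1a2.

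**Figure D3:**
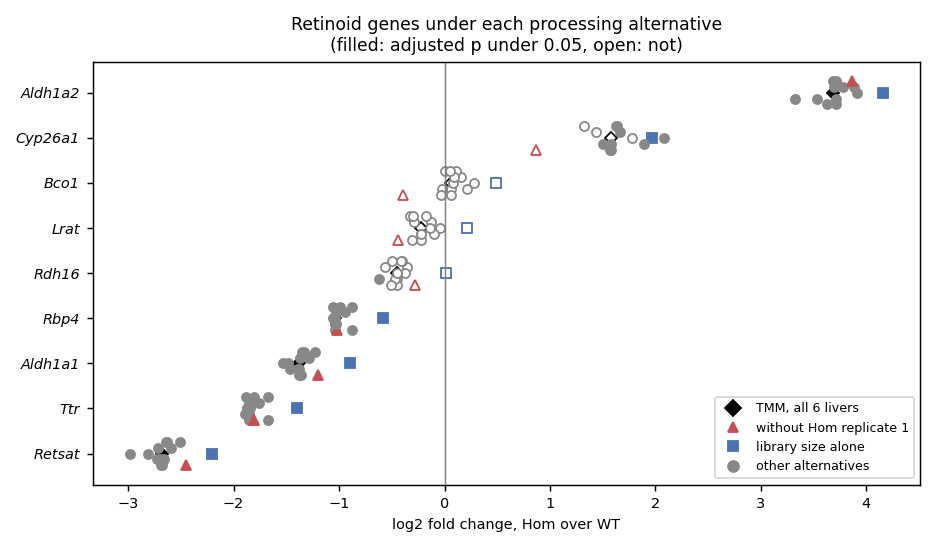
log2 fold change of each retinoid gene as reported and under each alternative processing, 1 point per setting. Rbp4, Ttr, Retsat and Aldh1a1 stay below 0 and Aldh1a2 and Cyp26a1 stay above it under every setting tried, while Lrat, Lrat, Rdh16 and Bco1 have points on both sides.

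Levels between genes were compared in the authors' TPM, which divide by gene length and have 1 fixed total per liver. In WT livers the order of mean TPM was Ttr (13240 ± 1737), Rbp4 (4791 ± 574), Aldh1a1 (952.9 ± 123), Retsat (243.9 ± 36.6), Rdh16 (45.9 ± 11), Cyp26a1 (21.9 ± 14), Bco1 (4.4 ± 0.70), Lrat (3.62 ± 1.17) and Aldh1a2 (0.153 ± 0.064) (SD, n = 3). Bco1 and Lrat differed by less than the SD of Lrat, and the others were further apart than their SDs. In Hom livers Cyp26a1 ranked 4 at 93.3 TPM, followed by Retsat at 59.7 and Rdh16 at 51.7, an order that changed when single Hom livers were left out. The 9 genes made up 1.79 to 2.19% of all TPM in WT and 0.864 to 1.08% in Hom livers. TPM are not corrected for library composition, so that between groups they differ from CPM. Mean TPM of Lrat, for example, was 3.62 in WT and 4.66 in Hom livers.

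Of 65 other retinoid pathway genes listed by role, 49 were tested: 13 were lower, 9 were higher and 27 did not pass, with a median log2 fold change of -0.16. For all genes the shares were 20.1% and 21.5% and the median -0.0018. Scaled by library size alone, 6 were lower and 16 higher. Of the 22 called genes, 17 were still called without Hom replicate 1.

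Among the 17 tested retinol dehydrogenases and retinaldehyde reductases, 7 were lower and 2 higher. Rdh7, a short-chain dehydrogenase, was at 949.5, 1096 and 1007 CPM in WT and at 425.8, 451.6 and 468.5 CPM in Hom livers. Its log2 fold change was -1.18 and that of Dhrs4, which reduces retinaldehyde, was -0.93 (edgeR adjusted p = 0.000806 and 0.000933). Dhrs9, a retinol dehydrogenase found in epithelia and macrophages, rose (1.41, edgeR adjusted p = 0.00209). In retinaldehyde oxidation, 2 of 5 were lower and none was higher: Aldh8a1 (-0.63, edgeR adjusted p = 0.00411) and the aldehyde oxidase Aox3 (-1.55, adjusted p = 0.00801). With library size alone Aldh8a1 stood at -0.18 (edgeR adjusted p = 0.227). Adh1, Adh5 and Dhrs3, from the list of dehydrogenases and reductases above, likewise lost their calls with that scaling (adjusted p = 0.0643 to 0.301).

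Among 8 genes of ester synthesis and hydrolysis, 2 were lower and 2 higher. Ces1d, a carboxylesterase of hepatocytes, fell (-2.48, edgeR adjusted p = 0.00384), from 465.1, 515.1 and 545.5 CPM in WT to 40.7, 136 and 96.5 CPM in Hom livers. Lpl, lipoprotein lipase, was at 45.6, 37.1 and 38.3 CPM in WT and 198.4, 190.3 and 221.4 CPM in Hom livers, a rise of 2.33 on the log2 scale (edgeR adjusted p = 0.000137). Pnpla2 (0.24, edgeR adjusted p = 0.0377), a triglyceride lipase, lost its call when any single liver was left out (adjusted p = 0.0614 to 0.122). So did Awat2, an acyltransferase that can esterify retinol (-1.08, edgeR adjusted p = 0.0470; 0.0538 to 0.158 with a liver left out). No gene passed among 3 of transport and uptake, 3 others of retinoic acid breakdown and 1 other of carotenoid cleavage.

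Of the 6 retinoid receptors, 3 were higher and 2 lower. Rarb, itself induced by retinoic acid and carrying the promoter element shown above, was at 4.24, 3.40 and 3.20 CPM in WT and 16.5, 9.48 and 9.74 CPM in Hom livers. Its log2 fold change was 1.71 (SE 0.26, edgeR adjusted p = 0.00303), and Hom replicate 1 was again the highest. The call was kept without that liver. Rarg (0.78, edgeR adjusted p = 0.00473) and Rxrg (0.66, adjusted p = 0.0179) also passed, the latter not without Hom replicate 1 (adjusted p = 0.0524). Rxra was lower (-0.41, adjusted p = 0.0182) and so was Rxrb (-0.30, adjusted p = 0.0297), but with library size alone both had values above 0 (0.05 and 0.16). Each of the RXR genes lost its call when certain single livers were left out, with adjusted p-values of up to 0.109. Of 4 tested genes listed as retinoic acid responsive, Tgm2, which encodes tissue transglutaminase, was higher (2.03, edgeR adjusted p = 0.0015) and the other 3 did not pass. Of the 28 genes with the spacer-of-5 repeat, 5 were tested, of which 2 were higher, Rarb and Tnfsf13b (2.00, edgeR adjusted p = 0.0292), against 21.5% of all tested genes, and none was lower. With 5 genes, nothing is read from this count.

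**Figure D4:**
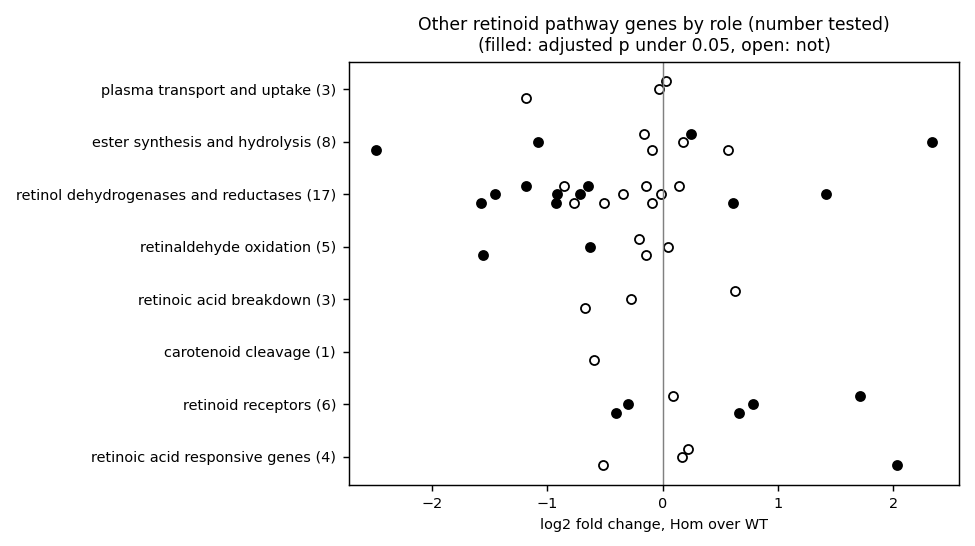
log2 fold change (Hom over WT) of the other tested pathway genes of the 8 roles described in the text, 1 point per gene, filled where the adjusted p was under 0.05. Most called retinol dehydrogenases and retinaldehyde reductases lie below 0, and Lpl at 2.33 and Rarb at 1.71 lie above it.

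The 9 genes are used by different liver cells, and markers of those cells moved too. Of 24 hepatocyte markers 13 were lower and 1 higher (median log2 fold change -0.68), and their summed CPM was 187900 to 224400 in WT and 93460 to 137300 in Hom livers. Examples are G6pc (-1.70), Cyp2e1 (-2.95) and Cyp7a1 (2.12), the last being the rate-limiting enzyme of bile acid synthesis. The log2 fold changes of Ttr and Retsat were below the hepatocyte median, as were those of Rbp4 and Aldh1a1. Of 14 tested quiescent or general stellate markers, 4 were lower and 2 higher (median -0.18), with summed CPM of 518.8 to 665.3 in WT and 411 to 450.4 in Hom livers. Angptl6 (-3.30) and Ecm1 (-2.30) fell and Pdgfrb rose (1.72), while Gfap, with 1 to 10 counts per liver, was not tested.

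Of 13 markers of activated stellate cells and myofibroblasts, 11 were higher and none lower (median 1.53). Their summed CPM was 92.1 to 138.9 in WT and 503.7 to 577.9 in Hom livers, with Pdgfra at 2.11, Loxl1 at 2.89 and Col1a1 at 3.32 on the log2 fold change scale. Of 5 tested portal fibroblast markers 4 were higher (median 1.49, summed CPM 12.1 to 21.4 and 52.1 to 63.1), among them Cd34 (2.76), Entpd2 (2.04) and Gpx8 (1.49). Of 12 cholangiocyte markers 10 were higher (median 2.80, summed CPM 76.0 to 106.7 and 636.4 to 899.8), among them Krt7 (2.63), Spp1 (3.78) and Epcam (3.18). Of 12 endothelial markers 8 were lower (median -1.15, summed CPM 331.8 to 450.6 and 201.4 to 211.2), with the smallest adjusted p-values for Oit3 (-1.85), Clec4g (-2.13) and Bmp2 (-1.76). Of 13 macrophage markers 3 were higher and 2 lower (median 0.47), with overlapping sums of 328.1 to 791 and 524.7 to 735.1 CPM. Ccr2 (3.19) and Lyz2 (1.3) rose and Timd4 (-2.38) fell. No marker with enough counts to be tested was at 0 in any liver. The part of these shifts in cell markers in the values of the retinoid genes was not tested.

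**Figure D5:**
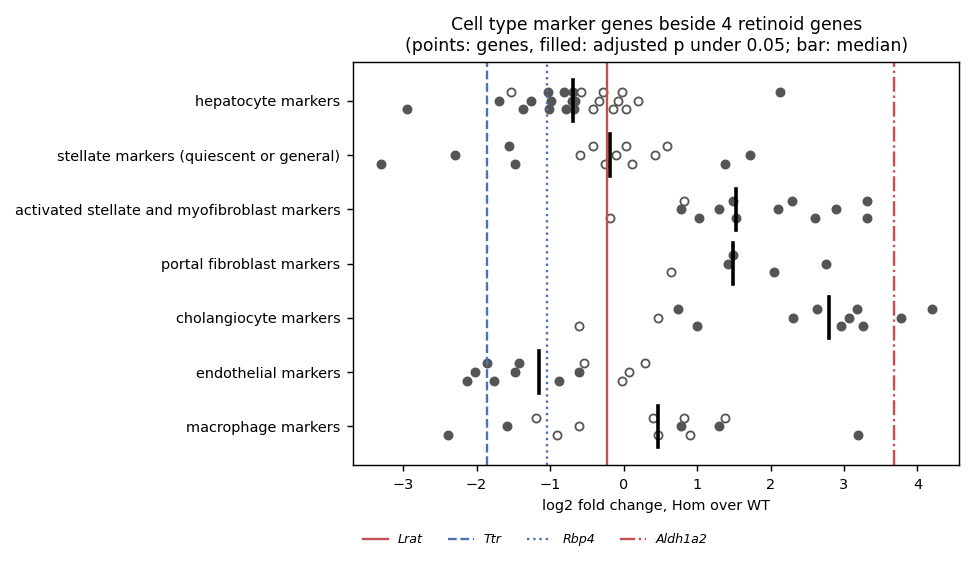
log2 fold change (Hom over WT) of cell type marker genes by list, 1 point per gene and a bar at the median of each list, with vertical lines at the values of Lrat (-0.22), Ttr (-1.85), Rbp4 (-1.04) and Aldh1a2 (3.68). The line of Lrat runs beside the median of the quiescent or general stellate markers at -0.18. That of Aldh1a2, a value that rests on few WT counts, lies above every activated stellate marker. It does not lie above every cholangiocyte marker (Spp1 is at 3.78).

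Across the 6 livers, the genes whose log2 CPM followed each of 3 retinoid genes most closely were named as a description, since the 6 points share 2 groups and a scaling. For Lrat they were Tcn2 and Mon1a (Pearson r = 0.988 each), and neither was called. For Rbp4 they were Angptl6 (r = 0.999), a marker on the stellate list above, and Gpr137 (r = 0.999). For Cyp26a1 they were Gucy2c (r = 0.996, log2 fold change 3.8, edgeR adjusted p = 0.0480) and Aph1b (r = 0.994), and each was highest in Hom replicate 1.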

How the data were processed

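RNA of whole liver, extracted with Trizol, was sequenced on the DNBSEQ platform. The authors deposited estimated counts (expected counts), FPKM and TPM for each liver. The submitters' processing notes name HISAT2 2.0.4, Bowtie2 2.2.5, RSEM 1.2.12 and the build mm9, without their roles, and strandedness is not given in the sources used here. The deposited mean columns carry crossed group names and were not used, nor were columns of other samples (0). FPKM served to imply gene lengths and as an alternative to TPM for the order of levels. Counts were rounded and tested in R 4.3.3 with edgeR 4.0.16 (filterByExpr, TMM, quasi-likelihood, Benjamini-Hochberg), after a test of the procedure on simulated data. The members and lists were chosen with earlier results of these data known. Genes named besides the members were Nek7, up to 3 called genes per role with a mean of at least 1 CPM, paralogs, up to 3 markers per list with the smallest adjusted p, and the 2 best-correlated genes for Lrat, Rbp4 and Cyp26a1. Eif2s3y, Ddx3y, Kdm5d, Uty, Gfap, Tnfsf13b, Awat2, Adh1, Adh5, Dhrs3, Rxra and Rxrb were named after their values were seen. Alternatives were DESeq2 1.42.0, other scalings and filters, a minimum absolute log2 fold change of 1, a gene length correction, the replicate number as a block and each liver left out. The result of 1 listed role is not reported here. Promoters were from RefSeq and exon positions from GENCODE M21. Each library held about equal totals, so depth limits mainly Aldh1a2 in WT livers. No library repeats another: within groups the count chi-square was 22.3 or more per degree of freedom.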

Additional observations from a re-analysis of the deposited data

How the results depend on the processing

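Of 134 values of single retinoid genes under an alternative, 119 kept direction and side of the threshold, 10 newly passed and 5 turned sign. In the setting with a minimum absolute log2 fold change of 1, direction could not change, since it uses the same fit. The turns were Lrat (0.21) and Rdh16 (0.014) scaled by library size alone, and Bco1 with the replicate block (-0.026), with gene length correction and block (-0.031) and without Hom replicate 1 (-0.39). Cyp26a1 passed at log2 fold changes of 1.58 with DESeq2, 1.97 with library size alone, 1.67 with upper-quartile scaling, 1.63 under a floor of 10 counts per liver, 1.5 with the replicate block, 1.64 with gene length correction and 1.57 with both. The number of retinoid genes called higher was then 2 with DESeq2, library size, upper-quartile scaling, the block and either length correction. With the filter of 10 counts Aldh1a2 was dropped. The cause was not tested.

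Scaled by library size alone, 642 genes were lower and 6574 higher, of the other pathway genes 6 were lower and 16 higher, 6 hepatocyte markers were lower and 7 macrophage markers higher, since all genes shifted by 0.45. When a size of 1 on the log2 scale was also required the counts were 575 and 1825 for all genes, 6 and 5 for other pathway genes and 6 for hepatocyte markers. Macrophage markers higher numbered 6 with DESeq2 and 5 with length correction.

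Leaving out 1 liver at a time gave 1767 to 2750 lower and 1986 to 3057 higher genes in all. It gave 4 to 5 retinoid genes lower, the fifth being Rdh16 without Hom replicate 2 (-0.62, edgeR adjusted p = 0.0473), and 1 to 2 higher. Log2 fold changes spanned -0.44 to -0.05 for Lrat, -0.62 to -0.28 for Rdh16, -0.39 to 0.28 for Bco1 and 0.87 to 2.08 for Cyp26a1. Hepatocyte markers lower ranged from 6 (without Hom replicate 3) to 16, and macrophage markers higher from 1 to 8 (8 without WT replicate 1). In Hom livers the TPM rank of Retsat was 4 to 6, of Cyp26a1 4 to 5 and of Rdh16 5 to 6.

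WT and Hom mice share replicate numbers but are different mice, and the deviations of same-numbered livers correlated at -0.11, -0.06 and -0.05, so the numbers do not pair them. With the replicate block the call of Cyp26a1 changed (above) and the 5 others kept theirs.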
